A study of Mus musculus with 5 samples.

Results

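SUZ12 ChIP-seq peaks from Mbd3-knockout mouse embryonic stem cells (ESCs) that carried MBD3 without its methyl-CpG-binding domain (ΔMBD) were compared with those of the same knockout cells labelled GFP. The comparison asks what this shortened protein adds to the SUZ12 map of cells without MBD3. A gene counts as listed if the table of a library links 1 or more peaks to it with a midpoint within 5000 bp of its start site. Of 1935 genes listed in any of the 4 peak tables of the series, 1740 were listed in ΔMBD or GFP. They divided into 689 listed in ΔMBD only, 988 listed in both and 63 listed in GFP only.

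SUZ12 is a core subunit of Polycomb repressive complex PRC2, which methylates a lysine of histone H3 and marks silent developmental genes in ESCs. MBD3 belongs to the NuRD complex, which joins histone deacetylation to nucleosome remodelling and takes part in the exit of ESCs from self-renewal. Its methyl-CpG-binding domain lies at the amino end, and the mammalian protein binds methylated DNA poorly in comparison with its relative MBD2. A coiled-coil domain lies at the other end.

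All cells were male ESCs of strain 129SV with Mbd3 knocked out, grown in conventional ESC medium with LIF. The ΔMBD cells carried MBD3a that lacks the methyl-CpG-binding domain, per the series design. The labels WT and deltaCC name the other libraries, taken as full-length MBD3 and MBD3a without the coiled coil (ΔCC), and GFP is taken as the control without MBD3. There was 1 library per group. The sources used here do not give the promoter that drives each protein, its level, or whether a culture was a clone. A peak table holds no RNA or protein level, so the knockout and the cell type could not be checked in it. The tables give the distance of each peak midpoint from the start site and no height, width or read number. Depth and peak strength are therefore unknown. Peaks are numbered in the tables, up to 4546 in ΔMBD and 2905 in GFP, so at least that many were called. Intervals below are exact 95% binomial (Clopper-Pearson) intervals. They cover counting error over genes or peaks only, and with 1 library per group no difference between libraries has a replicate check or a test.

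Some promoters of genes from each set are shown here, with each CpG dinucleotide, the unit that DNA methylation acts on, in capitals. Each is the 250 bases before a RefSeq start site (GRCm38.p6), read 5′ to 3′ on the strand of the gene, and they are shown because a ΔMBD midpoint (a GFP midpoint for genes in GFP only) lay inside the stretch. The start sites used to place the peaks came from build mm9 and may differ. Hoxb1 (chr11:96365508-96365757, + strand), Nt5e (chr9:88327359-88327608, + strand), Drd5 (chr5:38319259-38319508, + strand) and Kcnmb4 (chr10:116473524-116473773, - strand) were listed in ΔMBD only.
Hoxb1: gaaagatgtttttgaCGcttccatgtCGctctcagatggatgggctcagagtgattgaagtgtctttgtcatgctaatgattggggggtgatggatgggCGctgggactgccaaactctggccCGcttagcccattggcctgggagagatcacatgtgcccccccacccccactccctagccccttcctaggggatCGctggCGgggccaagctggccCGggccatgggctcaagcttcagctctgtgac
Nt5e: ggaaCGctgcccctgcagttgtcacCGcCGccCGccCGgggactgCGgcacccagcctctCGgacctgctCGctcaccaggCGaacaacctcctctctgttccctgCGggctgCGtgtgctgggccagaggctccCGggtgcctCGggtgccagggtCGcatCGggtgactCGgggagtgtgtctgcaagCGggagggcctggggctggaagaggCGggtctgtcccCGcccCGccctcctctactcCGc
Drd5: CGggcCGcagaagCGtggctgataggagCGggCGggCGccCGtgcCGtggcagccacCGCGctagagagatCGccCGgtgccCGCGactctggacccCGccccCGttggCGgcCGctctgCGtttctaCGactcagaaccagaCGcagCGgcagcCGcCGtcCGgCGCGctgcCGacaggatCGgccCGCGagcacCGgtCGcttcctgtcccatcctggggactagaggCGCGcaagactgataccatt
Kcnmb4: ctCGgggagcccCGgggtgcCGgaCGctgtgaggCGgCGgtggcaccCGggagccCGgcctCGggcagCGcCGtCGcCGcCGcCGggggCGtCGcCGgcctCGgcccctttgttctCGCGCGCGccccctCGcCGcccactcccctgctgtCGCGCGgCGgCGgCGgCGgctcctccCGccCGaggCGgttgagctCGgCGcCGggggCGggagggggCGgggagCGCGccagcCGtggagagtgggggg

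Gm13288 (chr4:88805281-88805530, + strand) and Hoxd3 (chr2:74711743-74711992, + strand) were listed in GFP only, and Isl1 (chr13:116309689-116309938, - strand) and Sim1 (chr10:50895401-50895650, + strand) in both.
Gm13288: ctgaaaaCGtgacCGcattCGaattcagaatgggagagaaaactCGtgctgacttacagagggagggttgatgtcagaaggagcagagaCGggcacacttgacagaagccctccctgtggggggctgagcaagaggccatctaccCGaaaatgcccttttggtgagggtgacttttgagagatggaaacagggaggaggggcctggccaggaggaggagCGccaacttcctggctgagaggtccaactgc
Hoxd3: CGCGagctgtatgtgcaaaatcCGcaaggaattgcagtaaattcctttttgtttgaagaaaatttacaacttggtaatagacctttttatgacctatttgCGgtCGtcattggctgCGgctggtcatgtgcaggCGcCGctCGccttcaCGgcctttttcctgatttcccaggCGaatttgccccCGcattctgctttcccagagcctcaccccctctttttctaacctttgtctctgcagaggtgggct
Isl1: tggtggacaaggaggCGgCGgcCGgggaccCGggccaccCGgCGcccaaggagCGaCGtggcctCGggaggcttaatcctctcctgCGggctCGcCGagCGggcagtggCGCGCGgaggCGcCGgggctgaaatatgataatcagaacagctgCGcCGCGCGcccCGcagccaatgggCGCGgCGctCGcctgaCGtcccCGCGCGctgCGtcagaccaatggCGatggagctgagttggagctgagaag
Sim1: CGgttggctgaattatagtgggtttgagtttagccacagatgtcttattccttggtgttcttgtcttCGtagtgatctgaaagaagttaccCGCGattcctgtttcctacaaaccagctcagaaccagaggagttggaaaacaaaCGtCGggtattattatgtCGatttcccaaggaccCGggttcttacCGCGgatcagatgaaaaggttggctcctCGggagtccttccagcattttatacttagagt

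These stretches held 7 CpGs at Hoxb1, 21 at Nt5e, 35 at Drd5 and 43 at Kcnmb4. They held 7 at Gm13288, 12 at Hoxd3, 33 at Isl1 and 11 at Sim1. Stretches with many CpGs and with few thus occurred among the genes in ΔMBD only and among those in both. The midpoint inside the stretch lay at -192 bp at Hoxb1, -168 bp at Nt5e, -106 bp at Drd5 and -216 bp at Kcnmb4 in ΔMBD. In GFP it lay at -119 bp at Gm13288 and -188 bp at Hoxd3. At Isl1, a LIM homeobox factor of motor neurons and heart, the ΔMBD midpoint lay at -49 bp and the closest GFP midpoint at 169 bp. At Sim1, a helix-loop-helix factor of the hypothalamus, the ΔMBD midpoint lay at -116 bp. The examples are the genes with the most peaks in each set (transcription factors for those in both) that have 1 RefSeq stretch with a midpoint in it, and they do not stand for their sets.

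The ΔMBD list held nearly every gene of the GFP list and many more. The 988 shared genes made up 58.9% (interval 56.5 to 61.3) of the 1677 ΔMBD genes and 94.0% (92.4 to 95.4) of the 1051 GFP genes. Of the 1740 genes in either list, 39.6% were in ΔMBD only, 56.8% in both and 3.62% in GFP only. Among the 21900 protein-coding symbols of RefSeq, the same sets made up 3.01%, 4.36% and 0.256%. The genes in ΔMBD only were linked to 1086 distinct peaks, 36.4% of the 2986 ΔMBD peaks, and the genes in GFP only to 122 peaks, 6.44% of the 1893 GFP peaks. The split depended on how a gene is listed. With a window of 1 kb there were 674 genes in ΔMBD only, 540 in both and 174 in GFP only. With at least 2 peaks required there were 573, 337 and 209 in the same order, and the shared genes made up 37.0% of ΔMBD genes and 61.7% of GFP genes.

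Transcription factors, the best known targets of PRC2, made up a small part of the genes in ΔMBD only. Factors were found by name patterns, which miss some, such as Casz1 and Bach2 in ΔMBD only and Myc in GFP only. Such genes count as other genes here. Matched factors were 43 of the 689 genes in ΔMBD only (6.24%, interval 4.55 to 8.31), against 286 of the 988 genes in both (28.9%, 26.1 to 31.9). Of the 329 transcription factors listed in ΔMBD, 86.9% (82.8 to 90.4) were also listed in GFP. Of the 1348 other ΔMBD genes, 52.1% (49.4 to 54.8) were. The gap was present among genes with the same number of ΔMBD peaks. With 1 ΔMBD peak, 88.7% of 133 transcription factors and 42.3% of 634 other genes were also in GFP. With 3 or more, the shares were 90.6% of 96 and 66.3% of 243. It was present at each distance too, with 78.9% of 90 transcription factors and 46.2% of 623 other genes whose closest ΔMBD midpoint lay within 500 bp. With a window of 1 kb the shares were 59.3% of transcription factors and 41.9% of other genes, and with at least 2 peaks required, 63.8% and 29.7%. The number of transcription factors in ΔMBD only, in both and in GFP only was then 72, 105 and 71 at 1 kb, and 71, 125 and 87 with at least 2 peaks, against 43, 286 and 17.

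**Figure D1:**
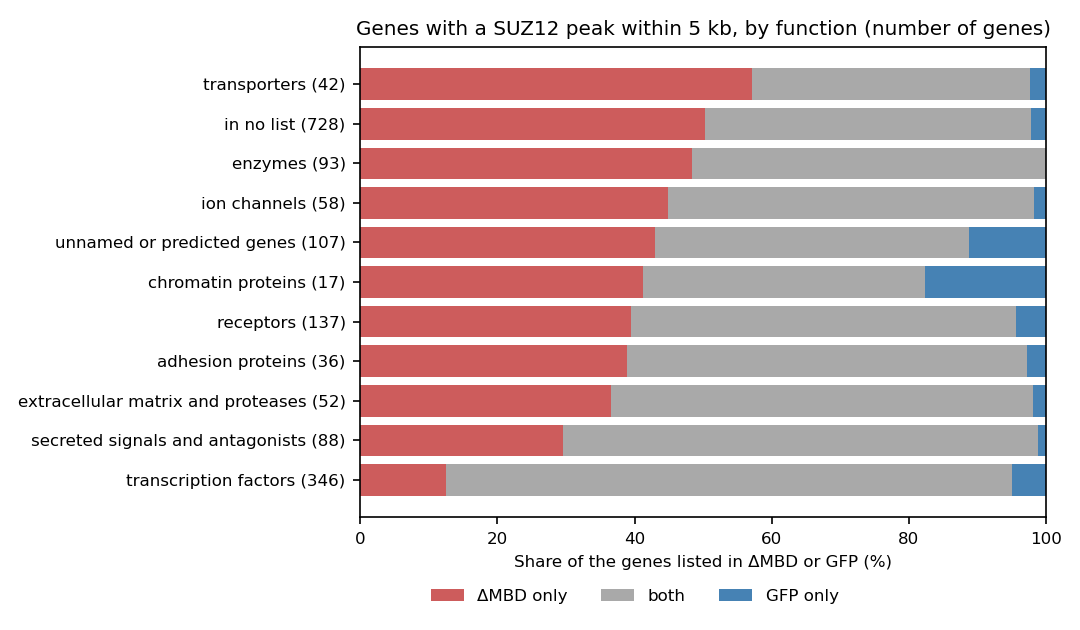
Share of the genes listed in ΔMBD or GFP that were in ΔMBD only, in both and in GFP only, for 11 functional groups, with the number of genes in brackets. A bar is a count of genes without error. The share in ΔMBD only runs from 12.4% of transcription factors to 57.1% of transporters.

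In several families of homeobox and other lineage regulators, every listed member was in both libraries. All 12 listed NK homeobox genes were in both, and so were all 11 LIM homeobox, 8 Pax, 6 Iroquois, 9 Dlx and Msx and 5 GATA genes, beside 56.8% of all genes in either list. The families are small: a count of 0 in ΔMBD only among the 5 GATA genes has an upper limit of 52.2%, and among the 12 NK genes of 26.5%. These families pattern the neural tube, limbs, heart and endoderm. Of 38 listed helix-loop-helix genes 34 were in both, of 21 forkhead genes 18, of 9 Sox genes 8, and of 75 other homeobox genes 65. Markers of early lineages were divided among the sets. All 5 endoderm markers (Gata4, Gata6, Sox17, Foxa2 and Sox7) were in both, as were 3 of 5 of trophectoderm (Cdx2, Eomes and Hand1). Of 5 mesoderm markers, Mesp1 and Kdr were in ΔMBD only, Mixl1 was in GFP only, T was in both and Tbx6 was not listed. Of 5 neuroectoderm markers, Pax6, Olig2 and Neurog2 were in both, Neurod1 was in ΔMBD only and Otx1 was not listed. Of 6 pluripotency genes only Esrrb was listed, in both.

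The 43 transcription factors matched by name in ΔMBD only came from many families. Tbx3, a T-box factor of limb and early lineage development that is also active in ESCs, had 4 ΔMBD peaks, at -2390, -791, 865 and 3792 bp, and none in GFP. Prdm14, a regulator of naive pluripotency and germ cells, had 1 ΔMBD peak at 198 bp. Hoxb1, a hindbrain patterning gene and retinoic acid target, had 5 ΔMBD peaks. The ETS factor Elf4 had 4 and the AP-2 factor Tfap2d had 3, with the closest midpoints at -229 bp and -16 bp. Among lists of transcription factors, the one with most members in ΔMBD only was the joined list of bZIP, ETS, EBF and STAT factors, with 11 of 27 (40.7%, interval 22.4 to 61.2), a share near the 39.6% of all genes in either list. It included Nfil3 and Ebf4 with 3 peaks each, Grhl2 with 2, the immediate early gene Fos with 1, and Smad3, which carries TGF-beta signals, with 2. Nuclear receptors in ΔMBD only were Rxra, the retinoid X receptor, with 2 peaks and Nr3c1, the glucocorticoid receptor, with 1. Neurod1 and Mesp1, helix-loop-helix factors of neurons and early mesoderm, had 1 peak each.

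Most of the listed Wnt and FGF ligands were in both. Most of the listed receptors for Wnt and TGF-beta signals were in ΔMBD only, but all these lists are short. Of 17 listed Wnt genes 14 were in both, and Wnt9a (3 ΔMBD peaks), Wnt9b (2) and Wnt16 (1) were in ΔMBD only. Of 9 FGF ligands, Fgf10, Fgf15 and Fgf2 were in ΔMBD only with 1 peak each. Of 14 TGF-beta family ligands 6 were, among them Bmp4 with 1 peak at 1251 bp and Inha, an inhibin subunit, with 1 at 1339 bp. The BMP antagonist Chrd (chordin) had 3 ΔMBD peaks and the Wnt antagonist Sfrp5 had 2. The receptor list was drawn up for Wnt, hedgehog and BMP signals and also takes in TGF-beta receptors. No gene named as a BMP receptor was listed, and the hedgehog co-receptor Gas1 was in both. Of the 12 receptors 8 were in ΔMBD only and 4 in both. Those in ΔMBD only were led by Kremen2, a receptor for Dickkopf proteins, with 4 peaks. Fzd3, Lgr5 (an R-spondin receptor and stem cell marker), Tgfbr2 and Tgfbr3 had 2. The share in ΔMBD only was thus 66.7% (interval 34.9 to 90.1) of these receptors and 17.6% (3.80 to 43.4) of Wnt ligands. For FGF ligands it was 33.3% (7.49 to 70.1). The intervals overlap, and each includes the 39.6% of all genes in either list. These are a few of 47 lists, so the counts do not show that receptors and ligands differ.

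Other receptor lists had shares in ΔMBD only near that of all genes. Of 22 receptor tyrosine kinases 7 were in ΔMBD only, led by Ret, the receptor of GDNF ligands, with peaks at -30, 948 and 1560 bp, and by Egfr and Epha8 with 2 peaks. Kdr, a VEGF receptor of early mesoderm, also had 2. Of 32 axon guidance genes 13 were in ΔMBD only. Rgma, a repulsive guidance molecule, had 4 ΔMBD peaks, and the netrin Ntn4 and the netrin receptor Unc5b had 3 each. Of 56 neurotransmitter and orphan G-protein receptors 19 were, including the dopamine receptor Drd5 with peaks at -1205, -106, 583 and 1217 bp. The adenosine receptor Adora1, the muscarinic receptor Chrm2 and the cannabinoid receptor Cnr1 had 2 each.

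Channel, transporter and enzyme genes were more often in ΔMBD only than transcription factors, and 366 of the 689 genes were in no list. Of 47 potassium, sodium and calcium channel genes 21 were in ΔMBD only (44.7%, interval 30.2 to 59.9). The calcium channel genes Cacna1d and Cacna1g and the potassium channel genes Kcnc1 and Kcnmb4 had 4 ΔMBD peaks each. Of 37 solute carriers 21 were in ΔMBD only (56.8%, 39.5 to 72.9), led by the glutamate transporter Slc1a2 with peaks at 208, 910 and 1412 bp. Of 35 glycosyltransferases and sulfotransferases 17 were, led by Galnt3, Galnt7 and St8sia5 with 3 peaks. Of 33 genes of cyclic nucleotide and lipid signalling enzymes 18 were in ΔMBD only. They were led by the phosphodiesterase gene Pde8b, the kinase subunit gene Prkag2 and the kinase gene Prkch. The intervals of the channel, solute carrier and enzyme lists include the 39.6% of all genes in either list. Those of transporters overall (57.1%, 41.0 to 72.3) and of genes in no list (50.3%, 46.6 to 54.0) lie above it, and that of transcription factors (12.4%, 9.14 to 16.4) lies below it.

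Chromatin regulators were few and stood on both sides. Bcorl1, which encodes a corepressor related to BCOR of a variant PRC1 complex, had the most peaks of any gene in ΔMBD only. Its 6 peaks lay at -967, 1226, 3199, 3482, 4326 and 4952 bp. Yaf2, a subunit of variant PRC1 complexes, and Chd3, a NuRD remodeller, had 2 ΔMBD peaks each, and Phf19, a Polycomb-like partner of PRC2, had 1. Cbx8, a subunit of canonical PRC1, was in GFP only, with peaks at -1610, 765 and 4858 bp. Of the cell cycle inhibitors, Cdkn2a was in ΔMBD only, with peaks at 3903 and 4470 bp, and 5 others were in both.

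Some neighbouring genes shared their peaks. Kremen2 and Paqr4, both in ΔMBD only, shared 3 of their 4 peaks each, so their counts are not independent. Avp (vasopressin), in ΔMBD only with 3 peaks, shared 1 of them with Oxt (oxytocin), in both. In all, 43 of the 689 genes in ΔMBD only shared a ΔMBD peak with another gene of that set, and 15 shared one with a gene in both. For 13 of these 15 every peak was also linked to the gene in both, as at Npm3, whose 2 peaks were also linked to Fgf8. Counting a peak only at the gene with the closest start site left 668 genes in ΔMBD only, 967 in both and 66 in GFP only.

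**Figure D2:**
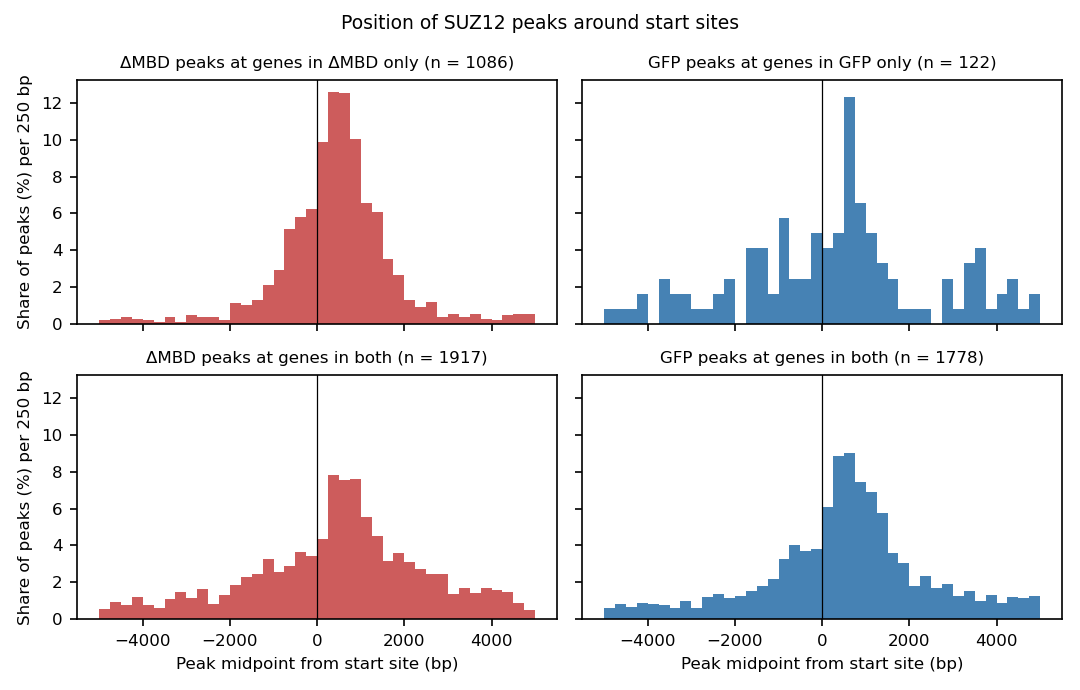
Distance of peak midpoints from the start site in bp, in bins of 250 bp, as a share of the peaks in each panel. A peak linked to more than 1 gene of a set counts once, at the closest. Peaks at genes in ΔMBD only gather closer to the start site (65.3% within 1 kb) than ΔMBD peaks at genes in both (39.9%).

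ΔMBD peaks at genes in ΔMBD only lay closer to the start site than ΔMBD peaks at genes in both. The closest ΔMBD midpoint was at a median of 480 bp from the start site for genes in ΔMBD only, against 702.5 bp for genes in both. It lay within 500 bp for 51.4% (interval 47.6 to 55.2) of the genes in ΔMBD only and for 36.3% (33.3 to 39.4) of those in both. By peaks, 65.3% (62.4 to 68.1) of the ΔMBD peaks at genes in ΔMBD only lay within 1 kb, against 39.9% (37.7 to 42.1) of those at genes in both. GFP peaks at genes in both lay within 1 kb in 46.3% (43.9 to 48.6). Beyond 2 kb lay few of the peaks at genes in ΔMBD only, since 89.5% were within it, against 66.6% of ΔMBD peaks at genes in both. Most peaks were downstream of the start site in each set, 71.1% of ΔMBD peaks at genes in ΔMBD only and 65.3% at genes in both. Some functional groups differed in position. The closest ΔMBD midpoint was within 500 bp for 713 of all 1677 ΔMBD genes. It was for 27.4% of 329 transcription factors, 21.4% of only 14 chromatin protein genes, 63.2% of 57 ion channel genes and 63.4% of 41 transporter genes. The other groups shown lay between, from 39.1% of secreted signals and antagonists to 54.3% of adhesion proteins. The part of function in the difference of position was not tested.

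Genes in ΔMBD only had fewer ΔMBD peaks than genes in both. The mean was 1.62 peaks per gene, against 1.98, and 55.3% (interval 51.5 to 59.1) of them had 1 peak, against 39.1% (36.0 to 42.2). Even so, 91 genes in ΔMBD only had 3 or more peaks and 23 had 4 or more. These included Lmo4, a LIM-only transcriptional adaptor, the ecto-nucleotidase gene Nt5e and the matrix protein gene Svep1 with 5 each. Flnc (filamin C), the kinase genes Lrrk1 and Map3k5, Skida1 and Soga1 had 4. Of ΔMBD genes with 1 peak 50.3% were also listed in GFP, of those with 2 peaks 62.0%, and of those with 3 or more 73.2%. Over all ΔMBD genes, those with several peaks were thus more often listed in GFP. The rise was present among genes other than transcription factors, from 42.3% with 1 peak to 66.3% with 3 or more. Transcription factors showed no such rise, with 88.7% for 1 peak, 81% for 2 and 90.6% for 3 or more. Within a window of 1 kb the order of the sets turned round, with more than 1 ΔMBD peak at 23.9% of genes in ΔMBD only and 17.2% of genes in both. The number of peaks depends on how the caller divides a broad region, and is not a strength.

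**Figure D3:**
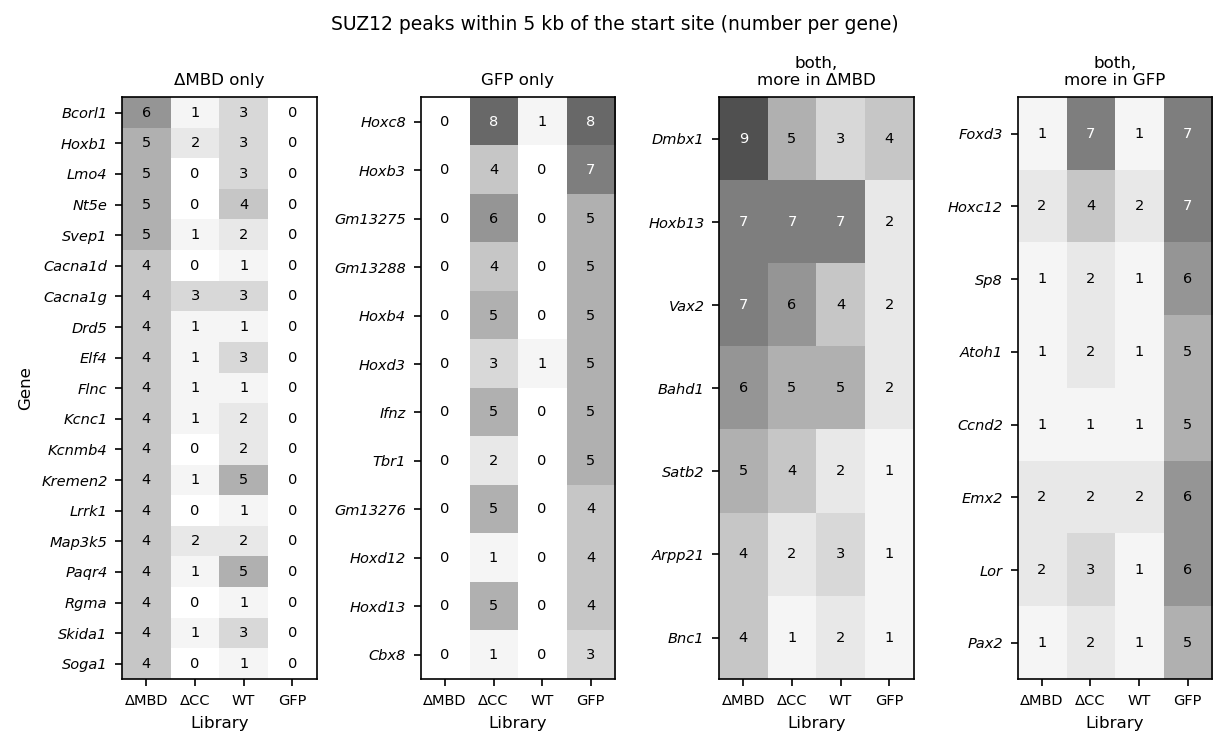
Number of SUZ12 peaks within 5 kb of the start site in each library (columns) at the genes named by peak number (rows), for ΔMBD only, GFP only, and genes in both with the largest excess of either library. The genes in the GFP-only panel have 1 to 8 peaks in ΔCC and at most 1 in WT.

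The GFP-only set was small and made up in part of gene clusters. Of its 63 genes 13 were Hox genes, which pattern the body axis, and 6 belonged to the interferon zeta cluster. These 19 genes held 10 of the 11 with 4 or more GFP peaks, and the other was Tbr1, a T-box factor of cortical neurons, with 5. Hoxc8 had 8 GFP peaks, Hoxb3 had 7, and Hoxb4 and Hoxd3 had 5 each, with none in ΔMBD. Of the 36 Hox genes in either list, 21 were in both and 13 in GFP only. Of all genes in either list, 56.8% were in both and 3.62% in GFP only. Of these 13 Hox genes, 4 were listed in WT and 11 in ΔCC. Gm13275, Gm13288 and Ifnz had 5 GFP peaks each and none in ΔMBD. These interferon genes are near-identical tandem copies between which reads can be divided, so their peaks are uncertain. Of the other 44 genes, 35 had 1 GFP peak. They included Myc, a growth-promoting transcription factor, at 1506 bp, the netrin receptor gene Dcc at 1381 bp, the neurotrophin receptor gene Ntrk3 at 969 bp, the mesendoderm factor Mixl1 at -462 bp and Meox2 at 1208 bp. Nefm, a neurofilament gene, had 2 GFP peaks. Of the 122 GFP peaks in this set 43.4% (interval 34.5 to 52.7) had a midpoint within 1 kb, and the 46.3% of GFP peaks at genes in both falls inside that interval. Absence from the ΔMBD list does not show absence of SUZ12 there.

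At the 988 genes in both, peaks differed in number and spacing. ΔMBD had more peaks at 363 of them (36.7%), GFP had more at 264 (26.7%), and 361 had equal numbers. Of ΔMBD peaks at these genes, 64.3% had a GFP peak with a midpoint within 1 kb at the same gene. Of GFP peaks, 71.8% had a ΔMBD peak. The direction differed by class. At transcription factors ΔMBD had more peaks at 76 of 286 and GFP at 121. At other genes ΔMBD had more at 287 of 702 and GFP at 143. Of the 21 Hox genes in both, GFP had more peaks at 14 and ΔMBD at 5.

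**Figure D4:**
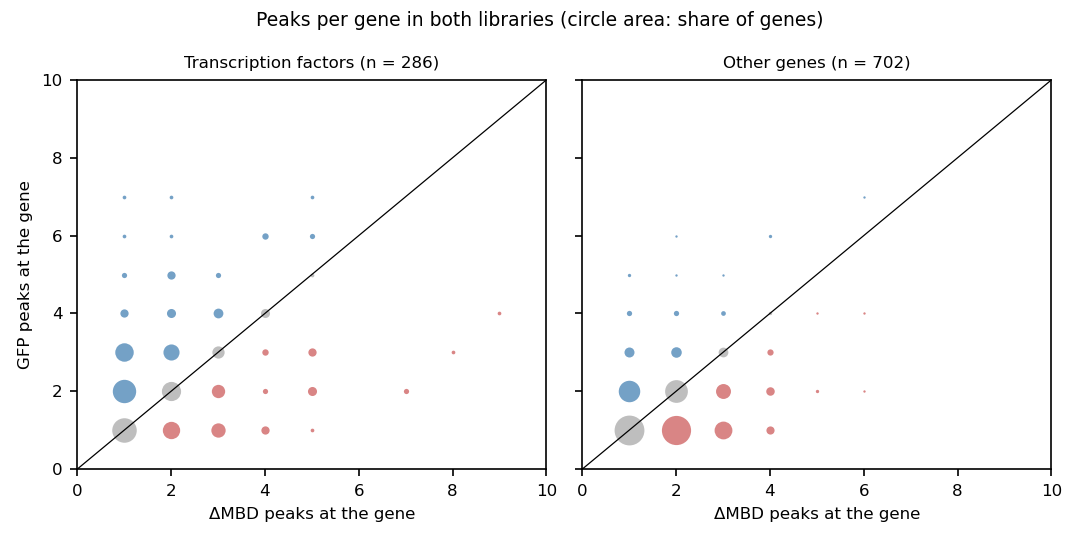
GFP peaks (vertical) against ΔMBD peaks (horizontal) at the 286 transcription factors and 702 other genes listed in both, with circle area giving the share of genes. Points below the line have more ΔMBD peaks (76 transcription factors and 287 other genes), points above it more GFP peaks (121 and 143).

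Single genes in both showed large differences in each direction. Dmbx1, a homeobox factor of the midbrain, had 9 ΔMBD peaks and 4 GFP peaks. Hoxb13 and Vax2 had 7 ΔMBD and 2 GFP peaks each, and Bahd1, a heterochromatin protein gene, had 6 and 2. On the other side stood Foxd3, a forkhead factor of neural crest and ESCs, with 1 ΔMBD peak at 566 bp and 7 GFP peaks between -4555 and 3709 bp. Hoxc12 had 2 ΔMBD and 7 GFP peaks, and Sp8, a limb and brain zinc finger factor, had 1 and 6. Atoh1, Pax2 and Ccnd2 (cyclin D2) had 1 ΔMBD and 5 GFP peaks. Each of these genes was thus listed in both libraries while the number of its peaks differed.

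Where genes had at least 2 peaks in each library, ΔMBD peaks were spaced more widely. Over these 337 genes the median distance between the outermost midpoints was 3117 bp in ΔMBD and 2076 bp in GFP. Neighbouring midpoints were a median of 1709 bp apart in ΔMBD and 1274 bp in GFP. Transcription factors (125 of the 337) had a median span of 4922 bp in ΔMBD and 3519 bp in GFP, and other genes 2474 and 1448 bp. The wider span in ΔMBD was thus seen in both classes. Widths are not given, so wider regions cannot be told apart from peaks called at more separate places.

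Where each library had 1 peak, the midpoints mostly stayed near each other. Over 204 such genes the median displacement was 323.5 bp, and 178 were displaced by at most 1000 bp. Aspdh had its peak at -3554 bp in ΔMBD and -3554 bp in GFP, and Mzb1 at -4957 bp and -4956 bp. Kpna1 and Il31ra were displaced by 2 and 3 bp. In 6 genes the displacement was over 2000 bp. These included Pax9, a factor of teeth and pharyngeal pouches, at -3048 bp in ΔMBD and 2853 bp in GFP. Tbx1, a factor of the pharynx, lay at -574 bp in ΔMBD and 4545 bp in GFP. Shox2 lay at 2282 bp in ΔMBD and -872 bp in GFP, and the collagen gene Col4a2 at -3808 bp and -749 bp.

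**Figure D5:**
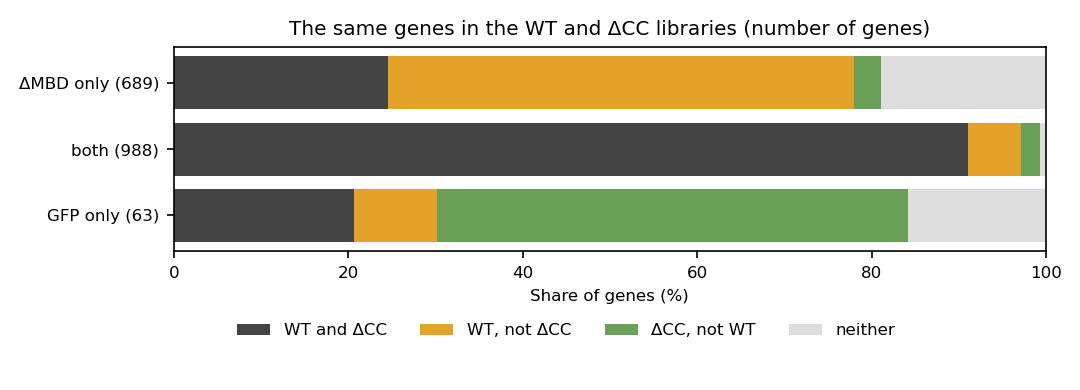
Share of the genes in ΔMBD only, both and GFP only that were listed in WT and ΔCC, in 1 of these libraries or in neither. The largest part of the ΔMBD-only bar is WT without ΔCC (53.4%), and that of the GFP-only bar is ΔCC without WT (54.0%).

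The WT and ΔCC tables did not enter the choice of the genes and give a further reading of each. Of the 689 genes in ΔMBD only, 77.9% (interval 74.7 to 81.0) were listed in WT and 27.7% (24.4 to 31.2) in ΔCC. Of the 988 in both, 97.2% (95.9 to 98.1) were listed in WT and 93.2% (91.5 to 94.7) in ΔCC. Of the 63 in GFP only, 30.2% (19.2 to 43.0) were listed in WT and 74.6% (62.1 to 84.7) in ΔCC. Most genes listed in ΔMBD and not in GFP were thus also listed with full-length MBD3, though a smaller share than of genes in both. Most of them were not listed without the coiled coil. Of the 1935 genes listed in any library, WT listed 1664 and ΔCC 1221. These list lengths bear on the shares, and a high share in WT is not particular to the genes in ΔMBD only. With at least 2 peaks required, 51.7% of genes in ΔMBD only were listed in WT. Without Hox and interferon genes, 15 of the 44 GFP-only genes were listed in WT and 30 in ΔCC.

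The reading in WT went with the number of ΔMBD peaks. Of genes in ΔMBD only, 65.9% of those with 1 peak were listed in WT, 91.2% of those with 2 and 96.7% of those with 3 or more. In ΔCC the shares were 20.5%, 34.1% and 42.9%. Cacna1g had 4 peaks in ΔMBD, 3 in WT, 3 in ΔCC and none in GFP. It was thus listed in each library that carried a form of MBD3. Tbx3 had 4 peaks in ΔMBD, 4 in WT and none in ΔCC or GFP, and Nt5e had 5 in ΔMBD, 4 in WT and none in ΔCC or GFP. Lmo4 had 5 in ΔMBD, 3 in WT and none in ΔCC or GFP. Kcnmb4, Rgma and Cacna1d were likewise absent from ΔCC and GFP, with 2, 1 and 1 WT peaks.

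Of the 689 genes in ΔMBD only, 130 (18.9%) were listed in no other library, against 10 of the 63 in GFP only (15.9%). These 130 were mostly genes with 1 peak (114 of 130, 87.7%), against 189 of the 368 genes also listed in WT but not in ΔCC (51.4%). Their closest midpoint lay farther from the start site, with a median of 629 bp against 473.5 bp. Transcription factors matched by name among the 130 were 3 (2.31%), Cdx4, Fos and Foxi2, against 24 of the 368 (6.52%). The named genes with the most peaks were Il15ra, a subunit of the interleukin-15 receptor, and Phospho1, a phosphatase of bone mineralization, with 3 ΔMBD peaks each. Acan (aggrecan), Htra3, Flt4, Tgfbr2, Sstr2 (a somatostatin receptor) and Igf2bp3 had 2. Bdnf (a neurotrophin), Cck (cholecystokinin) and Fgf10 had 1. Another 22 genes were listed in ΔMBD and ΔCC and not in WT or GFP. They included Aldh1a3, which makes retinoic acid, with 2 ΔMBD peaks and 1 ΔCC peak, and the lymphocyte factor Irf4, with 2 of each.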

How the data were processed

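SUZ12 ChIP-seq libraries of Mbd3-knockout ESCs were compared by their deposited peak tables, 1 library per group. Per the submitters' processing notes, bcl2fastq 2.18.0.12, MACS2 and build mm9 were used. The sources used here name no aligner, MACS2 settings or use of the input, and the input library was not used. Peak names in the ΔMBD table read MBD; the table was assigned by its record. Per the file headers, the authors linked peaks to genes with GREAT 3.0.0 (2 nearest genes, within 5000 bp, curated domains added). The deposited tables hold peak names and signed distances in bp and no other unit. Links beyond 5000 bp were left out, and lines that repeated a symbol were joined. A peak linked to several genes of a set was counted at the closest.

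The members and gene lists were chosen with earlier results of these data known. The 47 lists were name patterns applied to symbols, and can overlap. Transcription factors are the union of the lists of such factors, and factors that no pattern matches count as other genes. Named genes were those with the most peaks in each set, up to 4 per list and set, the 8 largest excesses each way, and the 4 largest and smallest displacements. Ties were broken by alphabet. Some genes and a list that this rule names are not reported here. Other genes were named after their values were seen, namely Smad3, Fos, Tgfbr3, Phf19, Npm3, Fgf8, Oxt, Myc, Cdx4, Phospho1, Sstr2, Igf2bp3, Bdnf, Cck, Irf4, Isl1 and Sim1, while the lineage markers came from a fixed list. Gas1, Casz1 and Bach2 were also named after their values were seen. Of the 1740 symbols, 1642 matched a RefSeq symbol (GRCm38.p6), 54 matched 1 synonym and 44 matched none. Of these, 2 were names turned into dates and were not assigned. RefSeq promoter windows were found for 71.1% of genes in ΔMBD only, 69.9% of those in both and 71.4% of those in GFP only. That is under 80%, so a comparison of CpG content by set is void. No replicate exists, so no p-value is given. The counting functions were tested on simulated data. Figures were drawn with matplotlib 3.10.9 and intervals computed with SciPy 1.17.1, under NumPy 2.4.6 and Python 3.11.15.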

Additional observations from a re-analysis of the deposited data

How the results depend on the processing

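Counting all deposited pairs, peaks at the closest start site only, the genes without Hox, or protein-coding symbols only left each recomputed count within 1.5 times the main one and each share within its interval. The window and the number of peaks required moved most others, and here each value is for the 1 kb window and then for at least 2 peaks. Genes in GFP only numbered 174 and 209, and in both 540 and 337. The share of ΔMBD genes also in GFP was 44.5% and 37.0%, and of GFP genes also in ΔMBD 75.6% and 61.7%. Transcription factors numbered 72 and 71 in ΔMBD only, 105 and 125 in both and 71 and 87 in GFP only. Of ΔMBD transcription factors 59.3% and 63.8% were also in GFP, and of other ΔMBD genes 41.9% and 29.7%. Of genes in ΔMBD only 69.9% and 51.7% were listed in WT. Of genes in GFP only 44.3% were listed in WT at 1 kb, and 57.9% in ΔCC with at least 2 peaks. Genes with more than 1 ΔMBD peak at 1 kb were 23.9% in ΔMBD only and 17.2% in both, so the order of these sets turned round. The fewer genes or peaks that these settings admit are part of their construction.

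Matching midpoints within 500 bp paired 28.5% of ΔMBD peaks and 45.5% of GFP peaks, and within 2000 bp 54.0% and 83.1%. Peaks within 500 and 2000 bp of the start site were 34.6% and 89.5% of ΔMBD peaks at genes in ΔMBD only, 19.3% and 66.6% of ΔMBD peaks at genes in both, 22.5% and 72.3% of GFP peaks at genes in both, and 16.4% and 64.8% of GFP peaks at genes in GFP only. The CpG alternative was not run, for the reason given with the methods. No paired analysis was possible because each group has 1 library. Depth, peak strength and width are unknown and limit every comparison: a gene missing from a list may lie under the threshold of that library or under a peak whose midpoint is farther away.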

Other observations

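Links over 5 kb, which entered no comparison, numbered 12 from 6 peaks in ΔMBD and 37 from 10 peaks in GFP, at 7 genes in each library. A mitochondrial gene, mt-Nd1, was listed in GFP with 1 peak at -1379 bp and was not listed in ΔMBD.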
